A study of Mus musculus with 6 samples.

Results

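Vitamin A reaches cells as retinol, is oxidized to retinal and then to retinoic acid (RA), and each of these small lipids is carried in water by dedicated proteins. Rbp4 encodes the retinol carrier of blood plasma, and Crabp2 a cytosolic protein that hands RA to its nuclear receptors. The first oxidation is reversible: retinol dehydrogenases such as Rdh10 make retinal, whereas the retinal reductases, among them Dhrs3, turn it back into retinol. In dendritic cells (DCs) the second oxidation, by retinal dehydrogenase 2 (Raldh2, gene Aldh1a2), gives the RA that is known for promoting regulatory T cells and IgA in the gut. The 9 genes described here are the carriers Crabp2 and Rbp4 and the retinol or retinal oxidoreductases Dhrs3, Dhrs4, Dhrs9, Rdh5, Rdh10, Rdh11 and Rdh14. They were chosen by name, with earlier results of these data known, as 9 of the 56748 Ensembl genes counted in the series. All 9 had at least 50 counts and entered the test of 21849 genes.

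The study compared bone marrow-derived DCs (BMDCs) of WT mice and of mice with a global deletion of Nfkb2, which encodes the p100/p52 subunit of noncanonical NF-κB, to learn how that pathway acts in DCs. There were 3 RNA-seq libraries per genotype, 6 in all. Both genotypes had the same culture of 9 days, first 5 days with 20 ng/mL GM-CSF and then 4 days with 10 ng/mL IL-4 added, and neither was stimulated (0 h). The deletion was present in every cell of the mouse before and during culture, so that it was not confined to DCs, and the labels used here give neither strain nor age.

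Levels are given as CPM, counts scaled to library size with TMM normalization, and the log2 fold change (log2FC) is Nfkb2-/- over WT from edgeR. Library totals ranged from 29863927 to 55623068 counts, so that 1 count was worth 0.0187 to 0.0344 CPM. Nfkb2 itself was at 215, 154 and 355 CPM in WT and at 44.8, 32.3 and 32.7 CPM in Nfkb2-/- BMDCs. The DC markers were abundant in every library, with 10 genes summing to between 5993 and 11280 CPM. Of these, Itgax (CD11c) alone passed the test, being higher in Nfkb2-/- BMDCs (log2FC 1.99, adjusted p = 0.0414). The DC markers went both ways, with a log2FC above 0 in 5 of the 10 and below 0 in the rest. A pair of libraries stood apart. WT replicate 3 had 142 CPM of 10 macrophage markers against 525 to 960 CPM in the other libraries, and was the lowest library for 9 of the 10. Nfkb2-/- replicate 1 had reads on 47952 Ensembl genes against 27692 to 33841 elsewhere, and was the highest library for all 7 lymphocyte, all 5 adipocyte and all 6 hepatocyte markers. Over all genes tested, log2 CPM of WT replicate 2 correlated more with Nfkb2-/- replicates 2 and 3 (Pearson r across genes, 0.983 and 0.984) than with WT replicate 3 (0.964). The lymphocyte, adipocyte and hepatocyte lists were low in every library, with sums of at most 6.94, 4.49 and 2.90 CPM. In bulk RNA, a change in the share of cells that express a gene and a change in RNA per cell cannot be told apart.

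A gene was called if it changed by more than 1.2-fold at an adjusted p under 0.05. In edgeR none of the 9 genes was called, where 1.14% of all genes tested were, 0.453% as higher and 0.682% as lower. At an unadjusted p under 0.05 there were 5 of 9, 4 higher and 1 lower, against 17.1% of all genes (9.03% higher and 8.04% lower). DESeq2 called 5 (Crabp2, Rbp4, Dhrs9 and Rdh11 as higher and Rdh5 as lower), where it called 8.60% of all genes (4.33% higher and 4.27% lower), and limma voom called 2 (Dhrs9 and Rdh5), against 2.23%. In 6 of the 9 genes the ranges of the genotypes did not overlap, 4 higher (Crabp2, Rbp4, Dhrs9 and Rdh11) and 2 lower (Rdh5 and Dhrs4) in Nfkb2-/- BMDCs. Over all genes, 24.7% did not overlap, 12.7% higher and 12.0% lower. The log2FC was above 0 in 5 of the 9 genes and in 55.7% of all genes. The median log2FC of the 9 genes was 0.19 and that of all genes 0.08, whereas the medians of the absolute log2FC were 0.545 and 0.393. The count of calls rested on single libraries: without WT replicate 2, Crabp2 and Dhrs9 passed in edgeR (2 of 9, against 5.87% of all genes). With any other library left out none of the 9 did. Over all genes, 0 were called without WT replicate 1 or without any 1 of the Nfkb2-/- replicates, so that none of the 9 could be. Without WT replicate 3, 270 of 21341 genes were called.

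**Figure D1:**
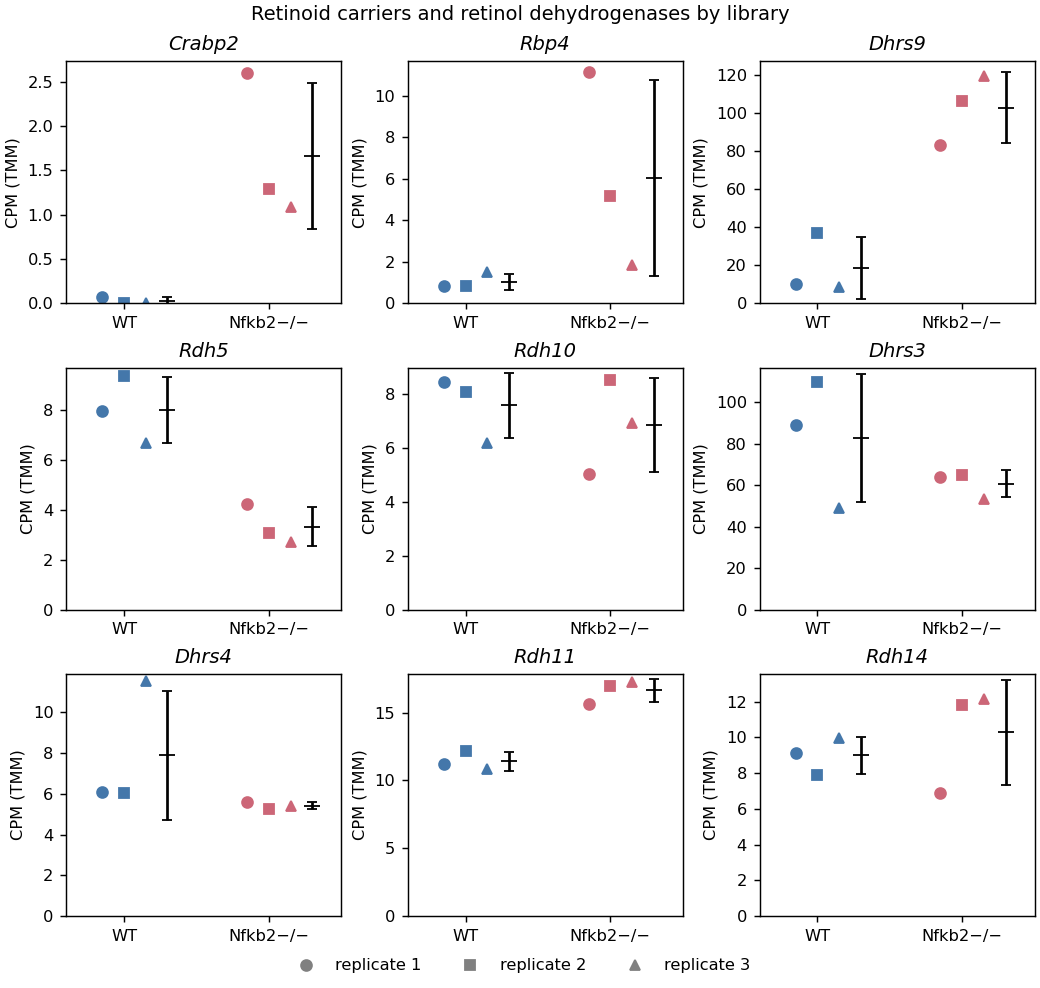
TMM-scaled CPM (linear axis from 0, different for each gene) of the 9 genes in 3 WT (blue) and 3 Nfkb2-/- (red) libraries. Marker shape gives the replicate and the bar beside the points the mean ± SD (n = 3). Crabp2, Rbp4, Dhrs9 and Rdh11 are higher and Rdh5 and Dhrs4 lower without overlap, and for Dhrs4 WT replicate 3 lies far above the other libraries.

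Among the carriers, Crabp2 (chromosome 3, 87948666 to 87953376, plus strand of GRCm38) was close to absent in WT BMDCs. It had 3, 0 and 0 counts in WT replicates 1, 2 and 3, and 88, 39 and 58 counts in Nfkb2-/- replicates 1, 2 and 3. These correspond to 0.0712, 0 and 0 CPM in WT and to 2.60, 1.29 and 1.09 CPM in Nfkb2-/- BMDCs, a mean of 1.66 ± 0.823 CPM (SD, n = 3). All 3 Nfkb2-/- libraries were above all WT libraries. Since WT was at or under a floor of 3 counts per library (0.0889 CPM on average), Crabp2 was at least 18.6-fold higher in Nfkb2-/- BMDCs, and at least 13.3-fold higher without Nfkb2-/- replicate 1. The adjusted p was 0.0541 in edgeR, 1.3e-05 in DESeq2 and 0.181 in limma voom. It passed in edgeR with filterByExpr (0.0402), with no filter on low counts (2.49e-07) and without WT replicate 2 (0.0494), settings that called 2.06%, 3.50% and 5.87% of all genes. With both WT replicate 3 and Nfkb2-/- replicate 1 left out, where 4.85% of all genes were called, its adjusted p was 0.0425. Crabp2 met the minimum of 50 counts through the Nfkb2-/- libraries alone, which held 185 of its 188 counts. Crabp2 is also known from epithelia and fibroblasts. The 6 epithelial markers summed to 4.51 to 12.3 CPM in WT and 6.39 to 12.5 CPM in Nfkb2-/- BMDCs, most of it Epcam. In Nfkb2-/- replicates 2 and 3 Krt5 had 0 and 0 counts, Krt14 0 and 4, Krt8 0 and 2, Krt18 2 and 0 and Krt19 2 and 1. The 8 stromal markers summed to 3.82 to 57.5 CPM in WT and 46.5 to 54.2 CPM in Nfkb2-/- BMDCs. Only 1 of them, Lepr, was called as higher (adjusted p = 0.0478). Lepr was at 2.04, 6.89 and 2.13 CPM in WT and at 23.8, 29.0 and 40.9 CPM in Nfkb2-/- BMDCs, a large part of the latter sums. The log2FC was above 0 in 6 of the 8 and below 0 in Col1a1 (-0.47, adjusted p = 0.866) and Col1a2 (-0.82, adjusted p = 0.748). The part of the epithelial and stromal markers in the Crabp2 level was not tested.

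Rbp4 (chromosome 19, 38116629 to 38125281, minus strand) was low in both genotypes and uneven in Nfkb2-/- BMDCs. It was at 0.807, 0.831 and 1.48 CPM in WT replicates 1 to 3 and at 11.1, 5.14 and 1.83 CPM in Nfkb2-/- replicates 1 to 3. The lowest Nfkb2-/- library was only slightly above the highest WT library. The means were 1.04 ± 0.382 and 6.04 ± 4.72 CPM (SD, n = 3), a ratio of 5.81. The log2FC was 2.54 (standard error 0.65, 95% interval 1.02 to 4.06, adjusted p = 0.115), and 1.74 without Nfkb2-/- replicate 1 (adjusted p = 0.166). Rbp4 is best known from liver and fat, and in Nfkb2-/- replicate 1 the 6 hepatocyte markers summed to 2.90 CPM and the 5 adipocyte markers to 4.49 CPM. In the other libraries these sums were 0.154 to 0.451 CPM and 0.297 to 0.664 CPM. In Nfkb2-/- replicates 2 and 3 the hepatocyte sums were 0.231 and 0.187 CPM and the adipocyte sums 0.297 and 0.580 CPM. Among single markers there, Alb had 0 and 0 counts and Adipoq 1 and 4, whereas Apoa2 (7 and 9 counts) and Retn (6 and 22 counts) had more CPM than in any WT library. The part of these markers in the Rbp4 level was not tested. Rbp4 lies 8.19 Mb from Nfkb2 on the same chromosome. Of 214 genes tested within 10 Mb of Nfkb2, 5 were called (2.34%) and 30.4% did not overlap between genotypes. Whether the neighbourhood of the deletion bears on Rbp4 was not tested.

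The 7 oxidoreductases are short-chain dehydrogenases or reductases that differ in the direction they favour. Sequence before the transcription start is shown for 3 of them, namely Dhrs3, the most abundant in WT, and Dhrs9 and Rdh5, those with the largest differences in either direction. The windows are from RefSeq on GRCm38.p6, each read 5′ to 3′ on the gene's strand, and capitals mark letters of 4 motifs searched on both strands.
Dhrs3, chr4:144892577-144892826, plus strand: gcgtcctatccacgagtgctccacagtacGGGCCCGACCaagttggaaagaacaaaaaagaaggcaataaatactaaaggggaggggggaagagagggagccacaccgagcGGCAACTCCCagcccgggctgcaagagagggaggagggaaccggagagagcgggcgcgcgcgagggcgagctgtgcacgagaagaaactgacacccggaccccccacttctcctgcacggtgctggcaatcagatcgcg
Dhrs9, chr2:69380212-69380444, plus strand: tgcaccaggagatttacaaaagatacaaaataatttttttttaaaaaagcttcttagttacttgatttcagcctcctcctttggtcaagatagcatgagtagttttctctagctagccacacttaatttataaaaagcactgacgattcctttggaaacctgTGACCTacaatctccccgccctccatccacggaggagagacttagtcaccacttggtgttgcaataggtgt
Rdh5, chr10:128919298-128919547, minus strand: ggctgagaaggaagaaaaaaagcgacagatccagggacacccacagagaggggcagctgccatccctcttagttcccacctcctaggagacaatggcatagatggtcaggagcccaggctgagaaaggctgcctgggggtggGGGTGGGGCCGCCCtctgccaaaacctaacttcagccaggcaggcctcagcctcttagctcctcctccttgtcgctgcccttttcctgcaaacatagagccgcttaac
The motifs were an NF-κB core (GGG and CC with any 5 bases between them), a nuclear receptor motif (AGGTCA), a TCF/LEF motif (CTTTGA) and a PU.1 core (GAGGAA). Over the 250 bases before 32851 RefSeq starts, they occurred in 45.8%, 14.0%, 13.8% and 23.3% of windows. The Dhrs3 window shown, the most upstream of 3 for this gene, held 2 NF-κB cores, beginning 221 and 139 bases before its start. The other 2 windows of Dhrs3 overlap each other and held no NF-κB core and 1 TCF/LEF motif each. Dhrs9 held no NF-κB core in its window and 1 nuclear receptor motif on the reverse strand (TGACCT), 88 bases before the RefSeq start. The last 17 bases before that start lie in a GENCODE exon and are not printed. Rdh5 held 2 NF-κB cores that overlap each other, at 108 and 104 bases. The RefSeq start of Rdh5 lies 3591 bases inside the 5′ end of the GENCODE gene, so its window is intronic there and outside any exon. RefSeq windows were matched for 7 of the 9 genes, with 11 windows in all, and 5 of the 11 held an NF-κB core.

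Of the enzymes that oxidize retinol, Dhrs9 (chromosome 2, 69380445 to 69404533, plus strand), which also acts on hydroxysteroids, stood out by its level. It was at 10.2, 37.2 and 8.40 CPM in WT replicates 1 to 3 and at 83.1, 106 and 120 CPM in Nfkb2-/- replicates 1 to 3. The lowest Nfkb2-/- library was thus well above WT replicate 2, the highest WT library. The means were 18.6 ± 16.1 and 103 ± 18.5 CPM (SD, n = 3), a ratio of 5.54. The log2FC was 2.47 (standard error 0.57, 95% interval 1.14 to 3.80). The adjusted p was 0.0928 in edgeR, 0.000135 in DESeq2 and 0.0351 in limma voom. Without WT replicate 2 Dhrs9 passed in edgeR (log2FC 3.47, adjusted p = 0.00567), a setting that called 5.87% of all genes. With all 6 libraries and no filter on low counts it also passed in edgeR (adjusted p = 1.12e-13), where 3.50% of all genes were called. The SD of log2 levels in WT was 1.13, against a median of 0.254 over genes averaging 1 CPM or more. The macrophage markers summed to 843, 960 and 142 CPM in WT replicates 1 to 3 and to 526, 525 and 663 CPM in Nfkb2-/- replicates 1 to 3. In WT they shared only the rank order of Dhrs9, highest in replicate 2 and lowest in replicate 3. WT replicate 1 was close to replicate 2 for these markers but close to replicate 3 for Dhrs9. The part of the macrophage markers in the Dhrs9 level was not tested.

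Rdh5 (chromosome 10, 128913593 to 128922888, minus strand), known as the 11-cis-retinol dehydrogenase of the retinal pigment epithelium, ran the other way. Its CPM was 7.95, 9.35 and 6.68 in WT replicates 1 to 3 and 4.22, 3.07 and 2.69 in Nfkb2-/- replicates 1 to 3. Every WT library was above every Nfkb2-/- library, and WT was 2.40-fold higher on average. The log2FC was -1.27 (standard error 0.25, 95% interval -1.84 to -0.69). It stayed between -1.48 and -1.13 with each library left out. The adjusted p was 0.0625 in edgeR, 4.18e-04 in DESeq2 and 0.0441 in limma voom. Of its 2809 exonic bases, 720 are shared with Bloc1s1 on the same strand. Bloc1s1 was counted at 0.494 to 1.07 CPM, with a log2FC of -0.22 (standard error 0.51, adjusted p = 0.857). How reads on the shared bases were assigned is not known, and their part in the Rdh5 level was not tested.

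Rdh10 (chromosome 1, 16105774 to 16133734, plus strand), the main retinol dehydrogenase of the embryo, did not separate the genotypes. It was at 8.47, 8.09 and 6.19 CPM in WT and at 5.05, 8.54 and 6.94 CPM in Nfkb2-/- BMDCs. The ranges overlapped, and the log2FC was -0.15 (standard error 0.25, adjusted p = 0.793). Its sign turned to 0.018 without Nfkb2-/- replicate 1. The 95% interval of the ratio ran from 0.603 to 1.35, which leaves room for a difference of that size in either direction.

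Of the reductases, Dhrs3 (chromosome 4, 144892827 to 144928209, plus strand) makes retinol from retinal and is known to be induced by RA itself. It was at 89.2, 109.7 and 49.0 CPM in WT replicates 1 to 3 and at 63.9, 65.2 and 53.4 CPM in Nfkb2-/- replicates 1 to 3. The WT libraries surrounded the Nfkb2-/- libraries, with WT replicate 3 lowest of all. The log2FC was -0.44 (standard error 0.29, 95% interval -1.11 to 0.23, adjusted p = 0.479). Without WT replicate 3 it was -0.71 (adjusted p = 0.106).

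Dhrs4 (chromosome 14, 55478758 to 55490340, plus strand), a peroxisomal retinal reductase, depended on the same library in the opposite way. It was at 6.07, 6.03 and 11.5 CPM in WT and at 5.58, 5.24 and 5.41 CPM in Nfkb2-/- BMDCs. WT replicate 3 was the highest library, and the other WT libraries were only just above the Nfkb2-/- ones. The log2FC was -0.54 (standard error 0.29, adjusted p = 0.399) and shrank to -0.16 without WT replicate 3 (adjusted p = 0.701). WT replicate 3 is the library with the low macrophage markers. The part of that difference in Dhrs3 and Dhrs4 was not tested.

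Rdh11 (chromosome 12, 79174337 to 79192293, minus strand), a microsomal reductase of retinal, showed a small difference with little spread. It was at 11.2, 12.2 and 10.8 CPM in WT replicates 1 to 3 and at 15.7, 17.0 and 17.3 CPM in Nfkb2-/- replicates 1 to 3, without overlap. The log2FC was 0.55 (standard error 0.15, adjusted p = 0.132 in edgeR and 0.0291 in DESeq2). With each library left out it stayed between 0.50 and 0.60. The SD of its log2 levels was 0.0848 in WT and 0.0738 in Nfkb2-/- BMDCs, against medians of 0.254 and 0.214 over genes with at least 1 CPM. Rdh14 (chromosome 12, 10390772 to 10395562, plus strand), a related reductase, was at 9.16, 7.88 and 9.95 CPM in WT and at 6.88, 11.8 and 12.1 CPM in Nfkb2-/- BMDCs. Its ranges overlapped, with a log2FC of 0.19 (standard error 0.25, adjusted p = 0.734) and a 95% interval of the ratio from 0.759 to 1.73.

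**Figure D2:**
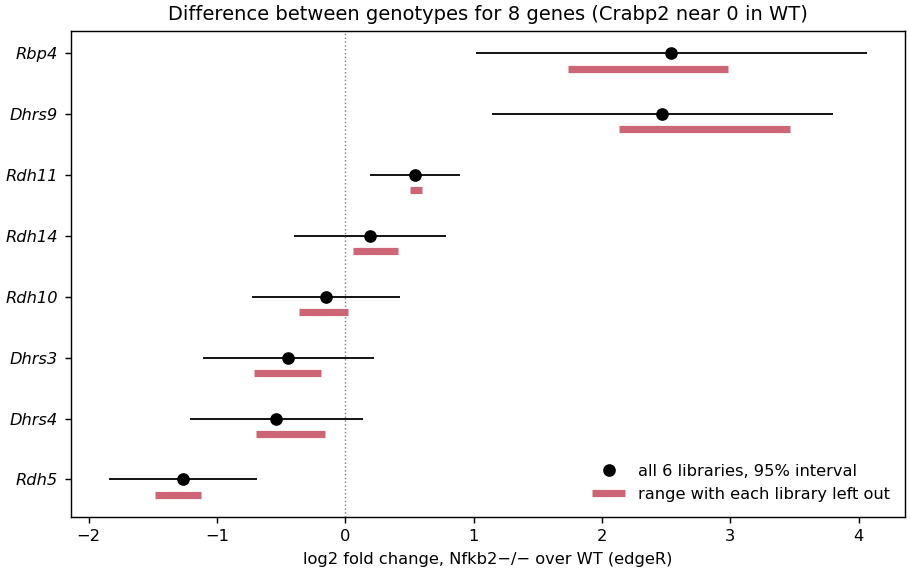
Log2FC, Nfkb2-/- over WT, from edgeR for the 8 genes that were measured above the floor in both genotypes. Black points and lines give the estimate and 95% interval from all 6 libraries, and red bars the range of estimates with each library left out in turn. Rbp4, Dhrs9, Rdh11 and Rdh5 have intervals that leave out 0, and none of the 4 passed the adjusted threshold.

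To compare levels between genes, CPM was divided by exonic length. In WT BMDCs Dhrs3 was highest, at 28.2 ± 10.6 CPM per kb (SD, n = 3), and its range lay above that of every other gene. Rdh14 (6.08), Dhrs4 (4.49), Dhrs9 (4.35), Rdh11 (3.30) and Rdh5 (2.85 CPM per kb) followed, and no neighbours in this order were apart in range. Rdh10 (1.82), Rbp4 (0.774) and Crabp2 (0.0179 CPM per kb) came last, each below the range of the gene before it. Rdh10, at most at 2.04 CPM per kb, still overlapped Dhrs9, whose lowest WT library was at 1.96 CPM per kb. In Nfkb2-/- BMDCs Dhrs9 ranked first at 24.1 ± 4.32 CPM per kb, next to Dhrs3 at 20.8 ± 2.21 CPM per kb with overlapping ranges. Rdh14 (6.95), Rdh11 (4.82), Rbp4 (4.50) and Dhrs4 (3.08 CPM per kb) made a group without gaps between neighbours. The lowest means were those of Rdh10 (1.65), Crabp2 (1.25) and Rdh5 (1.19 CPM per kb). Their ranges overlapped each other and that of Rbp4 (1.37 to 8.29 CPM per kb).

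The summed level of the 7 oxidoreductases overlapped between genotypes, at 50.6, 63.7 and 39.0 CPM per kb in WT and at 56.3, 66.1 and 65.1 CPM per kb in Nfkb2-/- BMDCs. Among the 7 shares of this sum, those of Dhrs9, Dhrs3 and Rdh5 were apart in range and those of Dhrs4, Rdh10, Rdh11 and Rdh14 overlapped. Dhrs9 gave 4.72%, 13.6% and 5.03% of the sum in WT replicates 1 to 3 and 34.5%, 37.6% and 42.9% in Nfkb2-/- replicates 1 to 3. Dhrs3 gave 60.2%, 58.8% and 42.9% in WT and 38.8%, 33.7% and 28.0% in Nfkb2-/- BMDCs. The shares are parts of 1 sum, so that a higher share of Dhrs9 lowers the others. With Dhrs9 left out of the sum, Dhrs3 gave 63.2%, 68.1% and 45.2% in WT and 59.1%, 53.9% and 49.1% in Nfkb2-/- BMDCs, with overlap, as its own level did. The ratio of Dhrs9 to Dhrs3 per kb was 0.0784 to 0.232 in WT and 0.890 to 1.53 in Nfkb2-/- BMDCs. With 3 libraries against 3, the smallest p an exact permutation test can give is 0.1, so these shares are given as values.

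**Figure D3:**
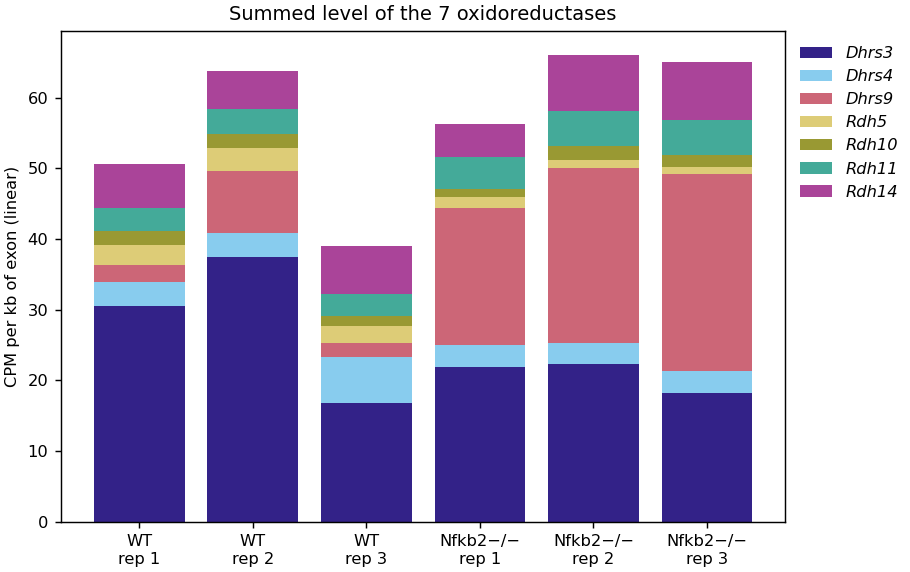
Summed level of the 7 retinol and retinal oxidoreductases in each library, in CPM per kb of exon on a linear axis from 0, with each gene as a segment of the stack. The height ranges from 39.0 to 66.1 CPM per kb with the genotypes overlapping, whereas the Dhrs9 segment is 4.72% to 13.6% of it in WT and 34.5% to 42.9% in Nfkb2-/- BMDCs.

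The rest of the RA pathway was listed as 53 genes, of which 29 had at least 50 counts. Of these 29, only Aldh1a2 passed the test (1 higher, 0 lower), against 1.14% of all genes. It was at 45.9, 94.4 and 92.4 CPM in WT and at 438, 467 and 342 CPM in Nfkb2-/- BMDCs, with a log2FC of 2.42 (standard error 0.31, adjusted p = 0.0307). Its adjusted p was 0.0876 to 0.163 without WT replicate 1 or without any Nfkb2-/- replicate, and the direction held. Per kb, Aldh1a2 was at 20.3, 41.7 and 40.8 CPM in WT and at 193.3, 206.2 and 151.2 CPM in Nfkb2-/- BMDCs, so in the latter it exceeded the sum of the 7 oxidoreductases in every library. Of the other retinal-oxidizing genes, Aldh1a3 had a log2FC of -0.04 (adjusted p = 0.976).

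None of the 6 tested genes among other carriers and uptake proteins passed. Fabp5, a fatty acid-binding protein that also binds RA, was the most abundant, at 216, 231 and 512 CPM in WT and 276, 286 and 303 CPM in Nfkb2-/- BMDCs (log2FC -0.15, adjusted p = 0.853), and its sign turned to 0.37 without WT replicate 3. Stra6l, a retinol transporter, had a log2FC of 0.06 (adjusted p = 0.979) that turned to -0.45 without WT replicate 3. None of the 10 tested genes among other oxidoreductases passed either. The most abundant were Adh5 (log2FC 0.03, adjusted p = 0.943) and Dhrs1 (log2FC 0.22, adjusted p = 0.476), the latter higher without overlap at 18.9 to 20.96 CPM in WT and 22.5 to 23.8 CPM in Nfkb2-/- BMDCs.

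Dgat1, an acyltransferase that can esterify retinol, was at 18.7, 20.8 and 18.4 CPM in WT and at 16.0, 12.9 and 13.4 CPM in Nfkb2-/- BMDCs, lower without overlap (log2FC -0.45, standard error 0.16, adjusted p = 0.211). Bco2, which cleaves carotenoids, had a log2FC of -0.18 (adjusted p = 0.807). The RA-degrading enzymes Cyp26b1 (log2FC 1.77, adjusted p = 0.288) and Cyp26c1 (log2FC 1.29, adjusted p = 0.554) were low, at most at 2.57 and 1.004 CPM, and both were highest in Nfkb2-/- replicate 1. None of the 5 tested RA receptors passed, and the most abundant were Rara (log2FC 0.11, adjusted p = 0.813) and Rxra. Rxra was at 55.9, 56.9 and 29.6 CPM in WT and at 28.5, 29.7 and 33.1 CPM in Nfkb2-/- BMDCs, with WT replicate 3 among the Nfkb2-/- libraries. Its log2FC was -0.64 (adjusted p = 0.266), and -0.89 without WT replicate 3 (adjusted p = 0.0498).

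Another 23 of the 53 genes had fewer than 50 counts over the 6 libraries and were not tested, and 20 of these had their highest level in Nfkb2-/- replicate 1. The remaining 1, Dhrsx, had no match in GENCODE M21 and was not analysed here. Of the 9 carriers and oxidoreductases, 2 (Crabp2 and Rbp4) were highest in that library.

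**Figure D4:**
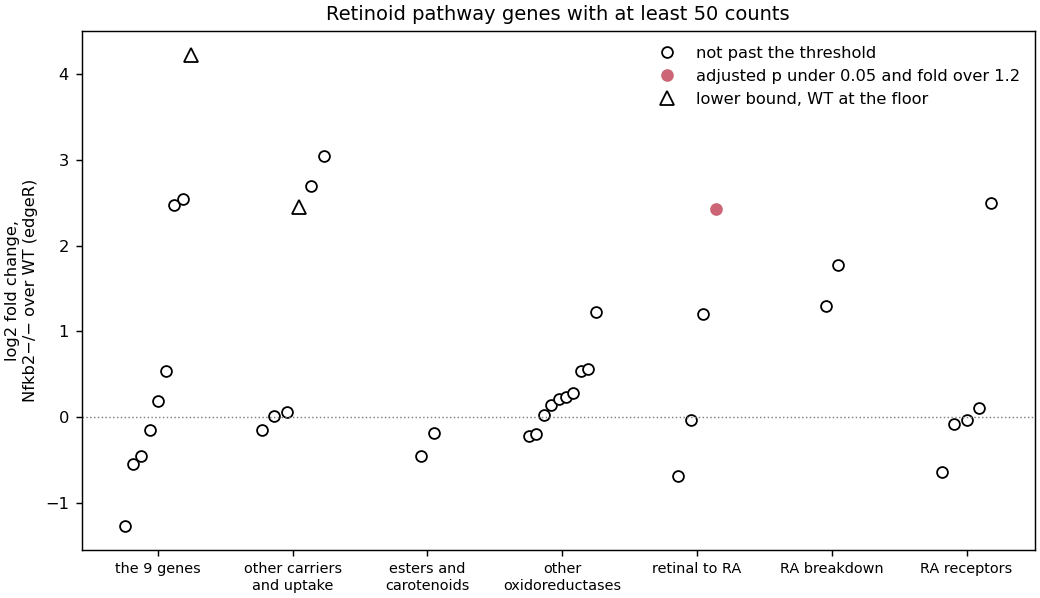
Log2FC, Nfkb2-/- over WT, from edgeR for every retinoid pathway gene with at least 50 counts, grouped by role along the horizontal axis. Each circle is 1 gene, and the filled circle is Aldh1a2, the only gene past the threshold. Triangles give a lower bound, taken as the Nfkb2-/- mean over the WT floor. They mark genes at or under 3 counts in every WT library (Crabp2 and Rlbp1). The bound of Rlbp1 rests on Nfkb2-/- replicate 1, with 47, 2 and 0 counts in the Nfkb2-/- libraries.

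The genes whose pattern over the 6 libraries was most like that of a carrier or oxidoreductase were sought for the 3 with the smallest p, among 15315 to 15316 genes that averaged 1 CPM or more. The measure was the root mean square difference of gene-centred log2 levels, with 0.5 CPM added before the log. The added 0.5 CPM shrinks differences near 0 CPM, such as those of Crabp2 from WT. For Dhrs9 the nearest was Klk2-ps (0.193), at 0.285, 2.98 and 0.344 CPM in WT and 9.07, 8.67 and 9.93 CPM in Nfkb2-/- BMDCs, which shares the high value of WT replicate 2. For Rdh5 it was Cd160 (0.0913), at 21.7, 21.9 and 19.6 CPM in WT and 11.4, 8.998 and 7.78 CPM in Nfkb2-/- BMDCs. For Crabp2 (log2FC 5.76 with WT near 0) it was Rhpn1 (0.153, log2FC 3.09), at 0.261, 0.308 and 0.207 CPM in WT and 3.66, 1.75 and 1.31 CPM in Nfkb2-/- BMDCs. These are descriptions over 6 libraries that share their normalization and the genotype difference.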

How the data were processed

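Bulk RNA-seq of polyadenylated RNA from 3 WT and 3 Nfkb2-/- BMDC libraries was used, grouped by the sample labels. Per the labels and the files, the authors deposited raw counts per Ensembl gene for each library, without normalization. The submitters' processing notes name HISAT2 and the builds GRCm38 and mm10, whereas the counting tool, annotation release and use of strand are not given in the sources used here. A joined table of the same series was not used.

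Kept were 21849 genes that had a name in GENCODE M21 and whose summed counts reached 50, and other IDs (1.01% to 1.75% of counts per library had no such name) stayed out of library sizes. Genotypes were compared with edgeR 4.0.16 (R 4.3.3; TMM, glmQLFit, glmQLFTest, no covariates) and Benjamini-Hochberg adjustment over all genes. Standard errors are the log2FC over the square root of F, and intervals cover 95%. Calls needed an adjusted p under 0.05 and a fold change over 1.2. DESeq2 1.42.0, the tool of the study's methods, limma voom (limma 3.58.1), other scalings and filters, the replicate number as a block and each library left out were alternatives. Leaving out both WT replicate 3 and Nfkb2-/- replicate 1, and leaving Dhrs9 out of the oxidoreductase sum, were added after seeing the data. The scripts were tested on simulated data.

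The 9 genes, the pathway and marker lists and the motifs were chosen with earlier results of these data known. Beyond the 9, the text names Nfkb2, genes past the threshold, the 2 most abundant genes of each pathway list and the nearest genes. Itgax, Lepr, Col1a1, Col1a2, Epcam, Krt5, Krt8, Krt14, Krt18, Krt19, Bloc1s1, Alb, Adipoq, Apoa2 and Retn, and Rlbp1 in a caption, were named after their values were seen. All pairs of libraries differed beyond counting noise (chi-square per degree of freedom of 11.0 or more), and the study describes its replicates as independent and biological, whereas the labels do not say whether they came from separate mice. P-values measure the spread between these libraries. Depth limits precision most near the floor of 3 counts (0.0561 to 0.103 CPM). It also does so at low counts above the floor, such as the 27 to 43 counts of Rbp4 in WT. Bounds from that floor do not cover the spread between libraries.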

Additional observations from a re-analysis of the deposited data

How the results depend on the processing

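Against 248 genes called in all, DESeq2 called 1878, limma voom 488, filterByExpr 397, no filter on low counts 1625, and at least 10 counts in every library 459. Leaving out 1 library gave 0 to 1248 (0 without WT replicate 1 or any Nfkb2-/- replicate, with 2325 to 4088 genes at an unadjusted p under 0.05), and leaving out WT replicate 3 and Nfkb2-/- replicate 1 gave 908. Of the 9 genes, edgeR called 0, DESeq2 5, limma voom 2, filterByExpr 1, no filter 4 and unadjusted p-values 5. Leaving out 1 library gave 0 to 2, and leaving out both gave 2 (Crabp2, adjusted p = 0.0425, and Rdh5, adjusted p = 0.0306). Of the other 29 pathway genes, 1 was called, 0 to 2 with 1 library left out and 2 with both left out. Whether the replicate numbers pair the libraries could not be settled with 3 libraries per genotype. Between libraries of equal number the correlations of deviations were 0.152, 0.106 and -0.0197, and WT replicate 2 was closest to Nfkb2-/- replicate 3 (0.128). With the replicate block 0 genes were called (3331 at an unadjusted p under 0.05), hence 0 of the 9 and 0 of the other 29.

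Signs turned for genes with a log2FC near 0: Adh5 with no filter (-0.0362) or with 1 library left out (-0.0398 to 0.0986), Aldh1a3 without TMM (0.109) or with 1 library left out (-0.538 to 0.292), and Bco2 with 1 library left out (-0.317 to 0.0127). Likewise with 1 library left out Fabp5 ranged from -0.366 to 0.369 (0.380 with both), Rdh10 from -0.363 to 0.0182 and Stra6l from -0.617 to 0.744 (-1.13 with both, -0.0979 with no filter). The cause was not tested. Crabp2, Rbp4, Dhrs9, Rdh5, Rdh11, Rdh14, Dhrs3 and Dhrs4 kept their direction in every alternative that could be fitted, and Crabp2 had no value with at least 10 counts in every library. Adjusted p ranged from 2.49e-07 to 0.217 for Crabp2, from 1.12e-13 to 0.314 for Dhrs9 and from 4.18e-04 to 0.253 for Rdh5.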
